A study of Homo sapiens with 4 samples.

Results

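Chromosome 4 was described in 40 kb bins of lamin B1 enrichment in 2 human prostate cancer cell lines. The members are all 40 kb bins of chromosome 4 with a value in both lines, 4633 of the 71436 such bins of the genome. On the long arm 2 stretches, of 1.18 and 1.16 Mb, were left out by the rule, and they held 59 of the 4692 bins of the chromosome, 30 and 29. The short arm holds 1231 members, up to chr4:49680000, and the long arm holds 3402, from chr4:52640001 on. The chromosome was chosen with its difference between the lines known, so that difference and all values of the same 2 tables are given as a description, with no test. The bins carry no threshold on their own values, and all members have a value and a state in both lines.

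Both established lines are of prostate cancer, LNCaP of a prostate adenocarcinoma and VCaP of a bone metastasis. The site that LNCaP was taken from is not given here, so the lines are not to be read as primary tumour against metastasis. Both grew in continuous culture, LNCaP in RPMI medium and VCaP in a DMEM F12 medium, both with 10% serum, so line and medium cannot be told apart. Chromatin fixed with formaldehyde was sheared and precipitated with a lamin B1 antibody (ChIP), and 1 ChIP and 1 input library were made per line, 4 libraries in all. There are no replicates. The error given is the noise between bins of the same libraries, which was 0.15 in LNCaP, 0.22 in VCaP and 0.27 (log2 units, 1 SD) for the difference between the lines in a single bin. The number of reads behind each value is unknown.

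Lamin B1 is a filament protein of the nuclear lamina, the mesh that lines the inner nuclear membrane. Chromatin at the lamina forms long lamina-associated domains, which are as a rule poor in genes, rich in A and T bases, late in replication and low in transcription. A value is the log2 of ChIP over input, so 0 means equal recovery in both. A bin is called associated where the authors' hidden Markov model gave it the state with the higher enrichment, and a domain is a run of adjacent associated bins.

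Chromosome 4 had more lamin B1 enrichment in LNCaP than in VCaP over most of its length, and the reverse at its short-arm end. For the 4633 bins the median log2 enrichment was 0.09 in LNCaP, with quartiles of -0.14 and 0.39, and 0.04 in VCaP, with quartiles of -0.23 and 0.30. The median of the bin-by-bin difference, VCaP minus LNCaP, was -0.09. LNCaP had the higher value in 58.6% of the bins, against 41.9% of all bins of the genome. The genome-wide median was higher in VCaP by 0.13, so relative to the genome of each line the chromosome lay lower in VCaP by 0.22 on the log2 scale (a difference of -0.22 after centring).

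In LNCaP 41.7% of the members were associated, against 37.9% of the bins of the genome. In VCaP 25.7% were associated, against 44.4% of the genome. The gap of -16.0 points depends on the state call: with enrichment over 0 as the state it was -6.43 points, and with a running median over 0 it was -6.28. Bins associated in LNCaP only made up 24.4% of the chromosome, against 17.2% of the genome. Bins associated in VCaP only made up 8.46%, against 23.8% of the genome. A further 799 bins (17.2%) were associated in both lines and 2311 (49.9%) in neither, where the genome had 20.6% and 38.4%. In the LNCaP-only bins LNCaP averaged 0.45 and VCaP -0.03. In the VCaP-only bins LNCaP averaged 0.00 and VCaP 0.47. The mean gap was -0.48 in the LNCaP-only and 0.48 in the VCaP-only bins. Both kinds were picked by state, so the opposite signs follow from the classes. The gaps of these classes over the genome were not computed.

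A difference over 2 noise SDs, 0.54 on the log2 scale, was found with LNCaP higher in 601 bins (13.0%, against 7.89% of the genome) and with VCaP higher in 294 bins (6.35%, against 19.1% of the genome). After subtraction of each line's genome median the counts were 963 (20.8%) and 164 (3.54%). The genome shares above are of values without that subtraction. No genome share was computed after it, so these counts cannot be set against them.

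The arms differed. The short arm had a median enrichment of 0.19 in LNCaP and 0.23 in VCaP, with 52.6% of its bins associated in LNCaP and 47.8% in VCaP. The long arm had a median of 0.06 in LNCaP and -0.03 in VCaP, with 37.7% and 17.7% associated. LNCaP had the higher value in 47.0% of the short-arm bins and in 62.8% of the long-arm bins. The median difference was 0.04 on the short arm and -0.12 on the long arm. After centring on the genome medians the short arm turned to -0.10 and the long arm lay at -0.25, and quantile normalization gave -0.07 and -0.21. The sign on the short arm thus follows the scaling, while the long arm lay lower in VCaP under each of these scalings.

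**Figure D1:**
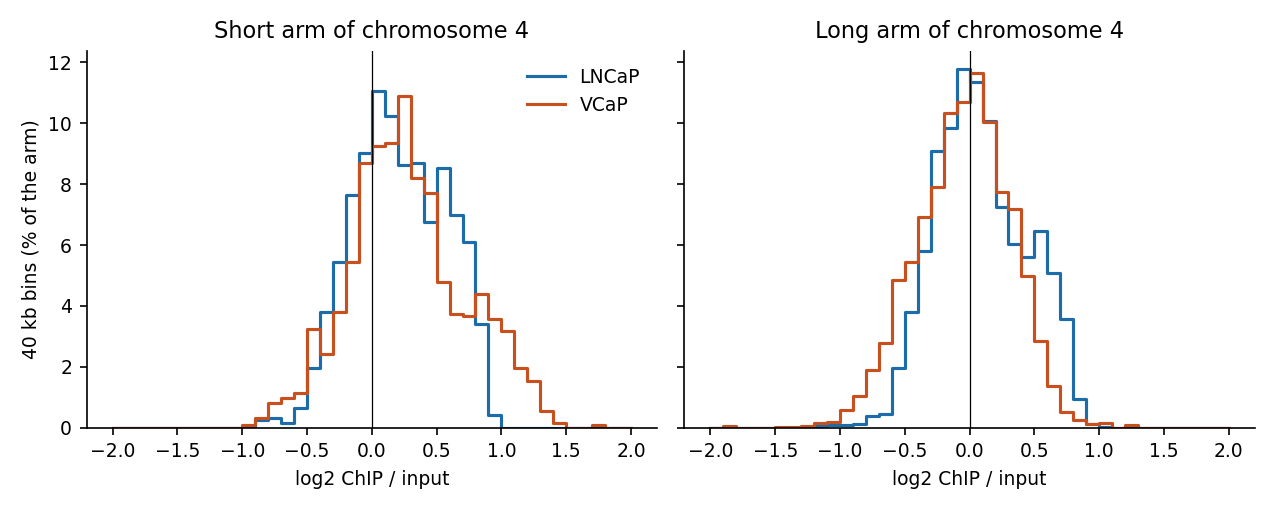
Share of the 40 kb bins of each arm (vertical axis, percent) by log2 ChIP over input (horizontal axis, steps of 0.1), for LNCaP in blue and VCaP in orange. The LNCaP curves of both arms have a shoulder between about 0.4 and 0.8, and the VCaP curve of the short arm has a tail above 1 that is nearly absent on the long arm.

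Of the 194 short-arm bins in which VCaP was higher by over 2 noise SDs, 149 lay in the outer 10 Mb of the arm. The median there was 0.25 for LNCaP and 0.85 for VCaP. LNCaP was higher in 4.47% of these 246 bins, and VCaP was higher beyond the noise in 60.6%. The bins were associated at 65.0% in LNCaP and 96.3% in VCaP. Without those 10 Mb the short arm had medians of 0.16 and 0.15, a median difference of -0.08 and LNCaP higher in 57.6% of its bins. The associated share of that inner part was 49.5% in LNCaP and 35.6% in VCaP.

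The long-arm end showed a smaller difference of the same sign. Its outer 5 Mb had a median of 0.12 in LNCaP and 0.30 in VCaP, with LNCaP higher in 27.6% of 123 bins. After centring, the median difference there fell from 0.15 to 0.02. Higher values in VCaP at chromosome ends were seen over the genome, in 40 of the 42 ends that could be compared by their outer 5 Mb. By size of that difference the short-arm end of chromosome 4 ranked 17 of 42 and its long-arm end 35 of 42, so neither stood at the extremes of the ends. The count of 40 uses values without centring. In these VCaP was higher in 58.1% of all bins of the genome, and its genome median was higher by 0.13. Some of the 40 ends differed by less than that shift. The first 2 Mb of the long arm beside the centromere also had a higher median in VCaP, 0.37 against -0.06 in LNCaP over 50 bins. The last 2 Mb of the short arm had medians of -0.28 in LNCaP and -0.08 in VCaP over 47 bins.

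Windows of 5 Mb trace the chromosome from end to end. Of 39 windows, 26 had a lower median difference than 0, which means LNCaP higher, 6 of 10 on the short arm and 20 of 29 on the long arm. The median was above 0 in both lines in 18 windows and below 0 in both in 7. It was above 0 in LNCaP and below 0 in VCaP in 10 windows, and the reverse held in 4. Windows of the other chromosomes were not counted, so the window counts have no genome share beside them.

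**Figure D2:**
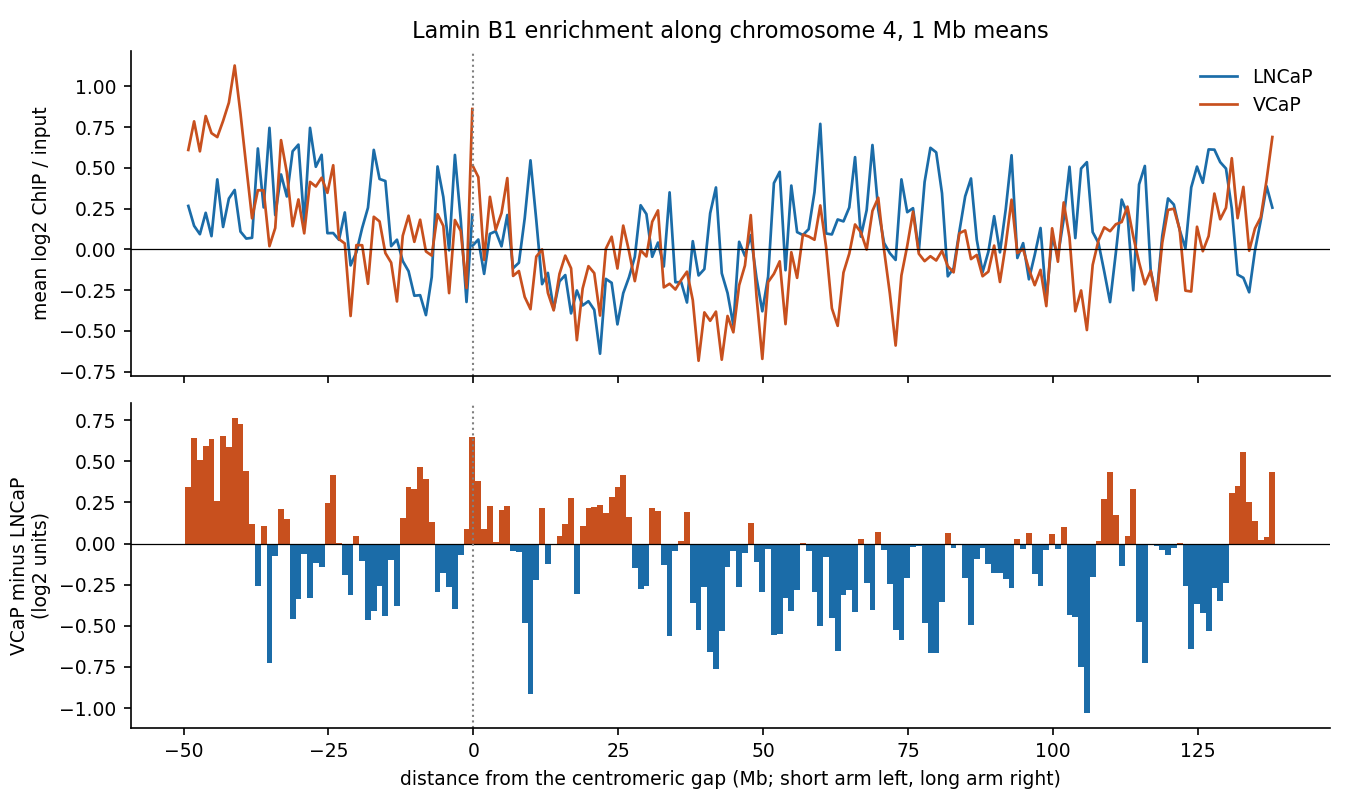
Mean log2 ChIP over input in 1 Mb windows (upper panel, LNCaP blue, VCaP orange) and the difference VCaP minus LNCaP (lower panel, log2 units), against the distance in Mb from the centromeric gap, with the short arm at negative distances. VCaP lies above LNCaP over the outer 10 Mb of the short arm and at the long-arm end, and LNCaP lies above VCaP in most windows of the long arm between about 28 and 130 Mb from the gap.

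On the short arm, chr4:5000001-10000000 was the window with the highest VCaP median, 0.92, and the largest difference toward VCaP. Its LNCaP median was 0.30, and the mean difference was 0.60 ± 0.04 (noise SD of the mean). Farther inward, chr4:15000001-20000000 had the highest LNCaP median of the chromosome, 0.57, with 0.33 in VCaP. Both lines were largely associated there, at 79.2% and 69.6% of its bins. The window chr4:30000001-35000000 parted the lines, with medians of 0.41 in LNCaP and 0.08 in VCaP and associated shares of 80.5% and 8.94%.

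The long arm opened with VCaP above LNCaP, with medians of 0.31 and -0.07 in the 59 bins up to chr4:55000000 and of 0.25 and 0.11 in chr4:55000001-60000000. The window medians of both lines lay below 0 from chr4:65000001 to chr4:80000000. The lowest LNCaP median of the chromosome, -0.37, was in chr4:70000001-75000000, where VCaP had -0.19 and neither line had an associated bin. The windows on either side had LNCaP medians of -0.25 and -0.28. The longest stretch with no associated member in LNCaP ran from chr4:63440001 to chr4:81200000, 17.8 Mb, and that of VCaP from chr4:58960001 to chr4:78120000, 19.2 Mb. Both stretches span the parts that the rule left out. The part nearer the long-arm end had 12 of its 29 bins associated in LNCaP and none in VCaP, and the other part had no associated bin in either line, so the LNCaP stretch is unbroken among the members only.

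Farther out, the lines separated. The lowest VCaP median, -0.43, was in chr4:90000001-95000000, where LNCaP had 0.06 and was higher in 97.6% of 125 bins. The largest difference toward LNCaP was in chr4:155000001-160000000, with medians of 0.39 and -0.24 and a mean difference of -0.57 ± 0.04 (noise SD of the mean). There 73.6% of the bins were associated in LNCaP and 10.4% in VCaP. Windows at chr4:130000001-135000000 (medians 0.50 and -0.04) and chr4:175000001-180000000 (medians 0.50 and -0.02) were of the same kind. In the first of these no bin was associated in VCaP, against 67.2% in LNCaP. Close to the end, chr4:180000001-185000000 was associated in both lines at nearly the same share, 75.2% and 74.4%.

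**Figure D3:**
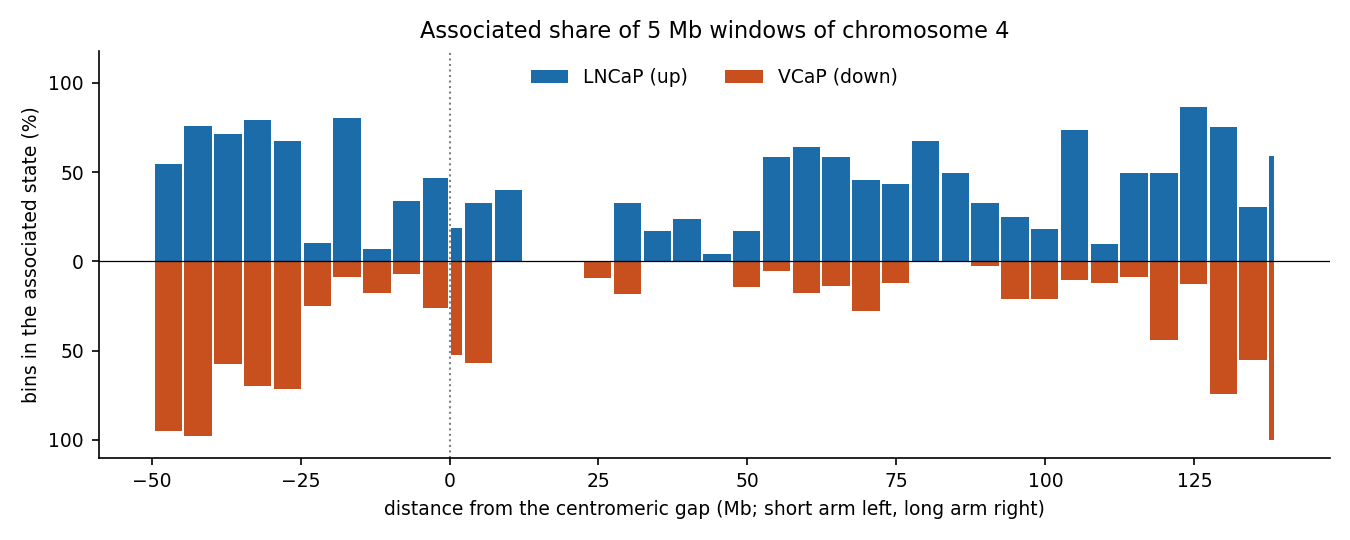
Percent of the 40 kb bins in the associated state in each 5 Mb window, for LNCaP (blue, upward) and VCaP (orange, downward), against the distance in Mb from the centromeric gap. Of the 39 windows, 8 have no associated bin in VCaP and 3 have none in LNCaP, and the windows with over 50% number 10 in VCaP and 14 in LNCaP.

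Domains were longer in LNCaP. The 65 LNCaP domains covered 77.2 Mb, with a median of 920 kb and quartiles of 480 and 1680 kb, and 30 of them reached 1 Mb. The 60 VCaP domains covered 47.6 Mb, with a median of 460 kb and quartiles of 280 and 1080 kb, and 16 of them reached 1 Mb. Thus the number of domains was similar, and the length set the covered span apart. The gap was on the long arm, where 40 LNCaP domains covered 51.3 Mb and 38 VCaP domains covered 24.1 Mb. On the short arm 25 LNCaP domains covered 25.9 Mb and 22 VCaP domains covered 23.5 Mb. These counts depend on the authors' state calls, and with a running median over 0 as the state there were 125 domains in LNCaP and 158 in VCaP.

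The longest domains lay at different places in the lines. In LNCaP the longest of the long arm was chr4:175800001-183760000, 7960 kb, where LNCaP averaged 0.49 and VCaP 0.15, and 45.2% of its bins were associated in VCaP. The longest LNCaP domain of the short arm was chr4:31480001-34800000, 3320 kb, with means of 0.50 and 0.12. In VCaP the longest of all was chr4:320001-9160000, 8840 kb at the short-arm end, where VCaP averaged 0.81 and LNCaP 0.22, and 68.8% of its bins were associated in LNCaP. The longest VCaP domain of the long arm was chr4:188600001-191080000, 2480 kb, with means of 0.57 in VCaP and 0.29 in LNCaP.

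Long stretches of the long arm without an associated bin of VCaP held LNCaP domains. They were picked by the VCaP state, so the absence of VCaP there is no result. From chr4:128440001 to chr4:144880000, 16.4 Mb, 46.0% of 411 bins were associated in LNCaP, in 6 domains, and none in VCaP. The median there was 0.13 in LNCaP and -0.02 in VCaP. From chr4:84520001 to chr4:100080000, 15.6 Mb, 16.7% of 389 bins were associated in LNCaP, and the median was -0.07 in LNCaP and -0.32 in VCaP. The LNCaP share was 37.7% over the long arm and 37.9% over the genome, so this stretch was low in LNCaP too. A reverse case lay on the short arm, from chr4:36800001 to chr4:43000000, 6.2 Mb. There no bin was associated in LNCaP and 20% of 155 bins were in VCaP.

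A run is here a row of 5 or more neighbouring bins of 1 class. There were 44 runs of the LNCaP-only class, covering 44.0 Mb, 33 of them on the long arm. The mean difference of 37 of the 44 exceeded 2 noise SDs of a mean over that many bins. The run with the largest difference was chr4:156880001-158920000, where LNCaP averaged 0.54 and VCaP -0.34. The difference was -0.88 ± 0.07 (noise SD of the mean), and LNCaP was higher in all 51 bins. It was followed by chr4:93560001-94760000 with means of 0.46 and -0.36 and LNCaP higher in all 30 bins. In chr4:61440001-63440000 the means were 0.49 and -0.22. In chr4:167280001-169080000 they were 0.52 and -0.17. The only one of these 5 on the short arm was chr4:14040001-15280000, with means of 0.63 and -0.03. The runs were picked by state and difference, so the sizes and the count past the noise describe the picked runs and are no test. Among runs with the same state in both lines, 19 of 46 associated in both and 21 of 68 in neither also passed that limit. The share of such runs over the genome was not computed.

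Runs associated in VCaP only numbered 30 and covered 13.8 Mb, and 24 of them exceeded their noise. They too were picked by state, so that count is no test. The largest difference was at the long-arm end, chr4:190800001-191080000, where LNCaP averaged -0.14 and VCaP 0.86, a difference of 1.00 ± 0.18 (noise SD of the mean) over 7 bins. That error comes from the noise over the genome, and the differences within this run had an SD of 0.60. Its last bin, the last member of the arm, alone had a difference of 2.05. On the short arm chr4:9360001-9840000 had means of 0.07 and 0.92. The run chr4:49480001-49680000, next to the centromeric gap, had means of 0.09 and 0.93. In chr4:3960001-4680000 the means were -0.03 and 0.68. The only one away from an end or the centromere was chr4:78120001-78520000, with means of -0.07 and 0.62 over 10 bins. VCaP was higher in every bin of these 5 runs.

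The 3 most enriched runs shared by the lines lay on the short arm. Among runs associated in both lines, chr4:16320001-17560000 had the highest mean of the lines, 0.65 in LNCaP and 0.87 in VCaP. It was followed by chr4:7160001-9040000 with 0.36 and 1.06 and by chr4:3400001-3960000 with 0.32 and 1.03. The lowest runs associated in neither line were chr4:17800001-18080000 with -0.24 and -0.53, chr4:156320001-156880000 with -0.13 and -0.58, and chr4:94760001-98840000 with -0.22 and -0.47. Of these, chr4:17800001-18080000 differed between the lines by less than 2 noise SDs. The last covers 102 bins, and it directly follows the LNCaP-only run at chr4:93560001-94760000. In the same way chr4:156320001-156880000 directly precedes the LNCaP-only run at chr4:156880001-158920000.

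Single bins reached farther. The lowest bin of the chromosome was the same in both lines, chr4:102160001-102200000, at -1.15 in LNCaP and -1.88 in VCaP. The highest LNCaP bin, chr4:112360001-112400000, had 1.01 in LNCaP and 0.19 in VCaP. The highest VCaP bin, chr4:49320001-49360000 near the centromeric gap, had 1.72 in VCaP and -0.13 in LNCaP. The largest difference toward VCaP, 2.05, was in the bin chr4:191040001-191080000, the last member of the long arm, and the largest toward LNCaP, -1.48, in chr4:158760001-158800000. The longest run of bins with LNCaP higher was chr4:154920001-159480000, 4.56 Mb with a mean difference of -0.61. The longest with VCaP higher was chr4:360001-5120000, 4.76 Mb with a mean difference of 0.58.

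The lines rose and fell together along the chromosome, more closely over short distances than over long ones. Across the 4633 bins Pearson's r between the lines was 0.43 and Spearman's rho 0.45, with 0.40 on the short arm and 0.42 on the long arm (Pearson's r). Bins share libraries and averaged entries, so these coefficients are descriptions. For means over 200 kb, 1 Mb and 5 Mb r was 0.42, 0.37 and 0.38. For bins relative to the mean of their own 1 Mb window it was 0.55, and relative to their own 5 Mb window 0.46. Within a line, bins 1 Mb apart had an r of 0.28 in LNCaP and 0.38 in VCaP, and bins 5 Mb apart 0.11 and 0.25.

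Domain borders gave a closer view of that likeness. LNCaP had 128 borders between adjacent bins and VCaP had 112. Of the LNCaP borders, 39 (30.5%) had a VCaP border of the same direction within 80 kb, which is 34.8% of the VCaP borders. Within 200 kb it was 46, 35.9% of the LNCaP borders and 41.1% of the VCaP borders. The rest of the genome is set beside this without a test, for the borders used for the steps below. There 1138 of 1679 LNCaP borders had no VCaP border of the same direction within 200 kb, against 81 of 126 on this chromosome. For VCaP borders without such a LNCaP border it was 1624 of 2164, against 66 of 111 on this chromosome. The enrichment of VCaP nevertheless changed at LNCaP borders: it averaged -0.09 at 100 kb outside and 0.32 at 100 kb inside, where LNCaP went from -0.09 to 0.43. At VCaP borders VCaP went from -0.14 to 0.50 and LNCaP from 0.00 to 0.32.

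**Figure D4:**
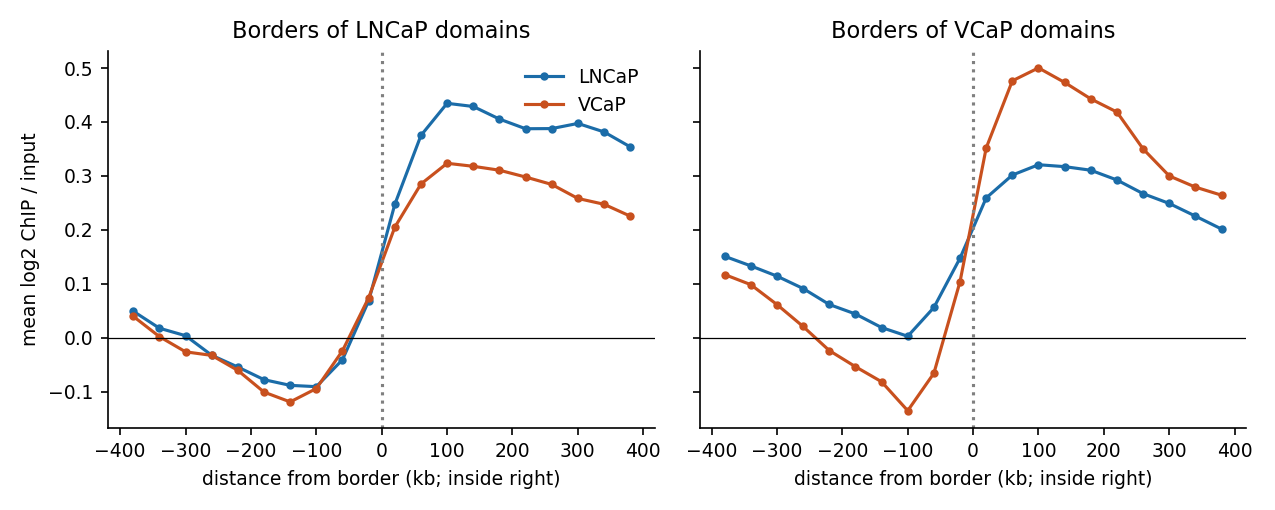
Mean log2 ChIP over input of LNCaP (blue) and VCaP (orange) against the distance in kb from the borders of LNCaP domains (left panel, 128 borders) and of VCaP domains (right panel, 112 borders), with the inside of the domain at positive distances. Both lines step up at the borders of either line, and the line that defines the border has the higher plateau inside.

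The step was present at most single borders, also where the other line had no border nearby. The step is the mean of 3 bins inside minus the mean of 3 bins outside, and it could be taken at 126 LNCaP and 111 VCaP borders. The median step at LNCaP borders was 0.46 in LNCaP and 0.35 in VCaP, and VCaP stepped in the same direction at 116 of 126 (92.1%). At the 81 of these borders without a VCaP border of the same direction within 200 kb, VCaP stepped in the same direction at 72 (88.9%), with a median of 0.29. In the rest of the genome the corresponding shares were 80.5% and 74.0%, a difference that was not tested. At VCaP borders LNCaP stepped in the same direction at 90 of 111 (81.1%), with a median of 0.29, against 83.6% in the rest of the genome. Where no LNCaP border lay within 200 kb, the count was 46 of 66 (69.7%), against 79.6%. The borders were drawn from 1 line and the step was read in the other, whose values did not set their places. The borders without a nearby border of the other line were picked by the states of that other line. In those subsets the line that was read thus took part in the choice.

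Among the 24 chromosomes, chromosome 4 ranked 2 from the lowest in the median difference, with chromosome 6 below it at -0.11 and chromosome 5 next above it at -0.04. The VCaP associated share and the VCaP median also ranked 2 from the lowest. The LNCaP associated share ranked 8 from the highest and the LNCaP median 9 from the highest. Pearson's r between the lines ranked 4 from the highest. The chromosomes nearest in length, 3 and 5, had an r of 0.27 and 0.29. Chromosome 3 had associated shares of 32.6% in LNCaP and 32.1% in VCaP, and chromosome 5 had 46.5% and 33.6%. These are ranks of the libraries, and no test was made of chromosome 4 against the rest.

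**Figure D5:**
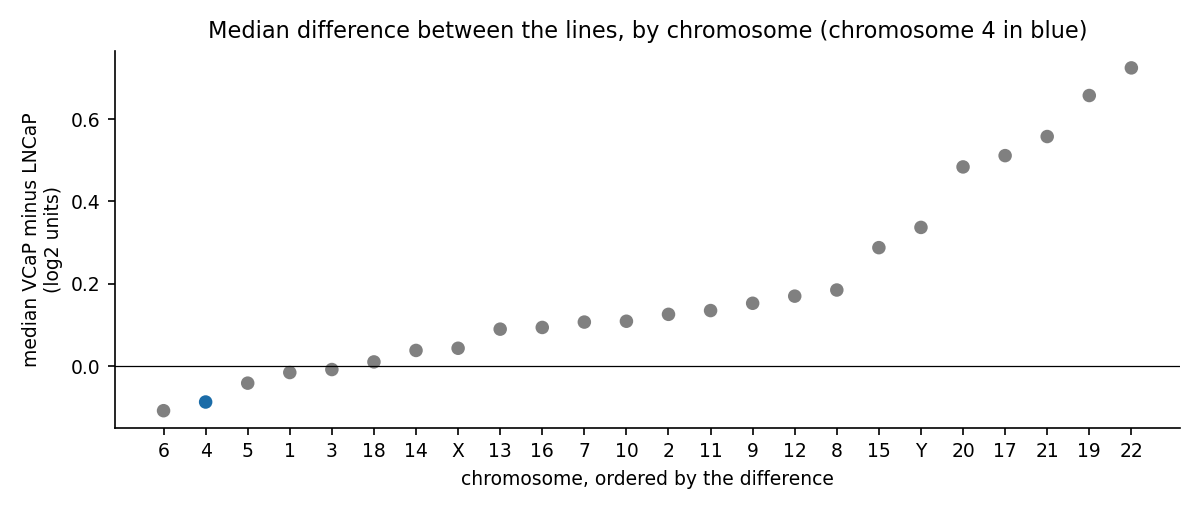
Median of the VCaP minus LNCaP difference in log2 enrichment (vertical axis, log2 units) for each of the 24 chromosomes, ordered by that value, with chromosome 4 in blue. Chromosome 4 lies at -0.09, between chromosome 6 at -0.11 and chromosome 5 at -0.04, and the highest is chromosome 22.

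The base composition of the bins was not measured here, and genes could be set beside the enrichment only by their order along the chromosome. RefSeq (GRCh38.p14) lists 742 protein-coding genes on chromosome 4, 3.83% of those of the genome, while the chromosome holds 6.49% of the bins. For 639 of the 742 genes the 250 bases before the gene start were at hand. Their median AT content was 39.2%, and by this median chromosome 4 ranked 3 of the 15 chromosomes with a promoter for at least 80% of their genes. The stretches left out of the members hold the UGT2 gene cluster and the gene block from CXCL8 to BTC, and with the centromere they cut the gene order into 4 segments.

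The segment between the 2 excluded stretches combined many genes with little lamin B1. It runs from SULT1B1 to RASSF6 with 35 genes in 4.08 Mb, or 8.58 genes per Mb, and includes the casein genes CSN1S1, CSN2 and CSN3 of milk, the salivary STATH and HTN1, the enamel genes AMBN and ENAM, and GC, ALB, AFP and AFM, which encode plasma proteins made in the liver. Its 102 bins are those of the window chr4:70000001-75000000 described above, with medians of -0.37 in LNCaP and -0.19 in VCaP and no associated bin in either line. Between the centromere and the first excluded stretch, 49 genes in 16.7 Mb (2.93 per Mb) went with medians of -0.04 and -0.02 and an associated share of 24.5% in both lines. From the last excluded stretch to the long-arm end, 406 genes in 115 Mb (3.52 per Mb) went with medians of 0.09 and -0.02 and associated shares of 40.9% and 17.4%. The short arm had 228 genes, or 4.59 per Mb, with medians of 0.19 and 0.23 and associated shares of 52.6% and 47.8%. It had the highest medians of the 4 segments, with more genes per Mb than all but the segment between the excluded stretches. A relation between gene density and enrichment was not tested.

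The genes of the low segment had promoters rich in A and T. The median AT content of the 250 bases before the start was 61.8% over its 30 promoters, against 43.4% over 48 promoters between the centromere and the first excluded stretch and 40.4% over 361 promoters beyond the last one. On the short arm 180 of 228 genes (78.9%) had a promoter at hand, under the 80% asked of whole chromosomes above. A larger share of its genes is thus missing than in the other segments. Over those 180 promoters the median AT content was 31.2%, the lowest of the 4 segments. The short arm also had the highest median enrichment of the segments, 0.19 in LNCaP and 0.23 in VCaP. A relation between promoter composition and enrichment was not tested. Single promoters toward the extremes of their segments are shown, and they are not typical of them. They are 2 of the low segment, of beta-casein (CSN2) and albumin (ALB), and 1 of the neighbouring segment, of the receptor tyrosine kinase KIT. The letters are the strand of the gene, 5′ to 3′, from RefSeq (GRCh38.p14), and capitals mark the dinucleotide CG.
CSN2: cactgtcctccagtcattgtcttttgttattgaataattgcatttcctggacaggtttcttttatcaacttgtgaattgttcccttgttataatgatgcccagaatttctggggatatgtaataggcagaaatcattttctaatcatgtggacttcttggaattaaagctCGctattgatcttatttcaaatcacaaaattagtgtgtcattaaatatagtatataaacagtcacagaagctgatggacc
ALB: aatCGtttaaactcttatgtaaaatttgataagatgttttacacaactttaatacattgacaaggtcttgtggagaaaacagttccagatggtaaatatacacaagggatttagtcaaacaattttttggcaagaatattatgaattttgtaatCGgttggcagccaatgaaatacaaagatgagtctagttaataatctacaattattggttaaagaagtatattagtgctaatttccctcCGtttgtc
KIT: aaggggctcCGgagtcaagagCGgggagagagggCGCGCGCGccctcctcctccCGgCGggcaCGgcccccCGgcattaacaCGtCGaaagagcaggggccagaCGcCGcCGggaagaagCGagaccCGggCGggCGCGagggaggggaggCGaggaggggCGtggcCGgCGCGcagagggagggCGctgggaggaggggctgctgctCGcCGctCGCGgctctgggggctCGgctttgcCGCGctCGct
The CSN2 promoter had 66.0% AT and 1 CG, the ALB promoter 70.0% and 3, and the KIT promoter 23.6% and 34. Each lies outside the AT quartiles of its segment. These were 48.1% and 65.9% in the low segment and 31.3% and 50.0% in that of KIT. The contrast between the shown promoters is thus wider than that between the segment medians. Of the 639 promoters of the chromosome 95.5% held at least 1 CG, and the median was 18. In the low segment the median was 2, and 76.7% of its promoters held a CG. These letters describe the promoters alone, and the bins were not read for their bases.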

How the data were processed

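The deposited tables give, per the labels, log2 ratios of lamin B1 ChIP to the matching input in 40 kb bins, and a further deposited table gives a hidden Markov model state per bin. Alignment with STAR and the build hg19 are named in the submitters' processing notes. How the authors scaled or smoothed the log2 values is not given in the sources used here. The deposited values behave as a trailing mean of 3 entries, which places signal about 40 kb downstream and makes neighbours dependent. The state with the higher mean enrichment (AD) was taken as associated. Coordinates are counted from 1.

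Noise is the median absolute difference of bins 3 apart, times 1.4826 and over the root of 2, with both lines in quadrature. Windows held at least 25 bins. The regions named are the 5 runs per direction with the largest mean difference among runs of at least 5 bins associated in 1 line only, the 3 highest runs of both and the 3 lowest of neither, the longest domain per line and arm, and the extreme 5 Mb windows. Other 5 Mb windows in the text were named outside that rule, with their values seen. The search for domains, the noise estimate and the undone mean were tested on simulated data. The members, regions and gene segments were chosen with earlier results of these data known, and the single bins, the one-sided runs, the chromosome ends and the border steps were added after the values were seen. No annotation of hg19 was used, so genes were ordered, and no gene was put in a bin. No test was made, since each group has 1 library. Depth is unknown. Python 3.11.15, numpy 2.4.6, pandas 2.3.3 and matplotlib 3.10.9 were used.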

Additional observations from a re-analysis of the deposited data

Results flagged for a closer look

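These results had enrichment above 0 in one line and below 0 in the other. Each line has 1 library pair, and none of the differences was tested. Values are VCaP minus LNCaP on the log2 scale, as a difference of medians for arms, segments and windows and of means for runs picked by state.

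The long arm gave -0.0856 (LNCaP 0.06, VCaP -0.03), and -0.0936 without its outer 5 Mb. The segment beyond the last excluded stretch gave -0.11 (LNCaP 0.09, VCaP -0.02). In the opposite direction, the first 2 Mb of the long arm beside the centromere gave 0.43 (LNCaP -0.06, VCaP 0.37). Of the windows, chr4:90000001-95000000 gave -0.49 and chr4:155000001-160000000 gave -0.63.

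Of the LNCaP-only runs, chr4:156880001-158920000 gave -0.88, chr4:93560001-94760000 gave -0.81, chr4:61440001-63440000 gave -0.71, chr4:167280001-169080000 gave -0.69 and chr4:14040001-15280000 gave -0.66. Of the VCaP-only runs, chr4:190800001-191080000 gave 1.00, chr4:3960001-4680000 gave 0.71 and chr4:78120001-78520000 gave 0.69.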

How the results depend on the processing

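Of 79 alternative values for 18 results, 2 changed sign, 23 moved past the limits set (1.5 times for a count, the noise of a single bin for a median), and 54 stayed within them. Those limits are wide for the median difference, which went from -0.09 to -0.22 after centring and -0.18 after quantile normalization, and on the long arm from -0.12 to -0.25 and -0.21. No paired analysis was possible because there is only 1 library in each group. The short-arm median difference changed sign to -0.10 after subtraction of each line's genome median and to -0.0721 with quantile normalization. With enrichment over 0 as the state, the associated shares were 60.3% in LNCaP and 53.9% in VCaP (difference -6.43 points), and with a running median of 5 bins over 0 they were 60.4% and 54.1% (-6.28 points), with 125 LNCaP domains of median 560 kb and 158 VCaP domains. With the 40% of genome bins highest in each line as the state, the share differed by -20.1 points, and runs of 1 line only numbered 76 in LNCaP and 16 in VCaP. Runs of at least 10 bins numbered 14 in VCaP. Bins past the noise with LNCaP and VCaP higher numbered 915 and 484 with noise from bins 2 apart, 71 and 24 past a difference of 1, 963 and 164 after centring, 970 and 155 after quantile normalization, and 1003 and 537 with the noise of the difference itself. That last alternative, and undoing the trailing mean with equal medians, were chosen after seeing the data. For bins past the noise, genome shares under the alternative settings were not computed, so an excess over the genome cannot be read from those counts. The cause was not tested, beyond the wider or narrower state and noise limits that these settings set by construction. The number of reads is unknown, so counting error cannot be given.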
